A study of Mus musculus with 8 samples.

Results

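A set of 9 genes of bone morphogenetic protein (BMP) signalling was examined in primary cultures of mouse muscle cells, prepared as putative stem cells. They were the ligand genes Bmp2, Bmp4, Bmp6 and Bmp7, the receptor genes Bmpr1a and Bmpr2, and the antagonist genes Grem1, Nog and Chrd. The members were taken by symbol: every probe set of the Affymetrix MOE430A and MOE430B arrays annotated to 1 of these 9 genes and to no other gene. This gave 18 probe sets, 15 on MOE430A and 3 on MOE430B, for 9 of the 18193 genes named on the arrays. The study had 4 primary cultures of hind limb muscle cells, each hybridised to both array types, which makes 8 arrays. In the MACS cultures, cells had been selected with magnetic beads for the surface antigen Sca1 and against CD45, the common leukocyte antigen. In the PP6 cultures, cells had been purified by preplating, in which cells that settle slowly on culture plastic are passed on to new dishes. The labels give a purity by flow cytometry for the MACS cultures and none for PP6. Each group had 2 cultures, numbered 2 and 3, grown in F10 Ham medium with 20% serum, and muscle cells are labelled as the contaminating cell type of both. Strain, age, passage and the number of animals are not given in the sources used here, nor is whether cultures of a group came from separate animals. The p-values below measure the spread between these cultures, which may be technical.

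BMPs are secreted signals of the TGF-beta family that bind a pair of type I and type II receptor kinases. The activated receptors phosphorylate Smad1, Smad5 and Smad9, which join Smad4 and switch on genes such as the Id inhibitors of differentiation. Noggin, chordin and gremlin 1 bind BMPs outside the cell and keep them from their receptors. In muscle, BMP signals are known to favour the growth of precursor cells and to hold back their differentiation, and in excess they can turn mesenchymal cells towards bone.

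In these cultures Bmp2, Bmp4, Bmp6 and 2 of the 3 probe sets of Bmpr2 lay lower in both PP6 cultures than in both MACS cultures, while 3 of 6 probe sets of the type I receptor gene Bmpr1a lay slightly higher. Over all 45037 probe sets 17.6% lay lower and 23.0% higher without overlap, 40.6% in all. Of the 5 lower probe sets, 4 were above the array median, the condition for a test, in the MACS cultures alone, which fixed their sign. None of these differences passed a test adjusted over all probe sets. The promoters of Bmp4, Bmp6, Bmpr2 and Bmpr1a are shown because the comparison turns on their transcripts. RefSeq windows (GRCm38.p6) were matched by symbol for 6 of the 9 members. The 250 bases before the start site are printed 5′ to 3′ on the gene's strand, with capitals for 3 motifs searched on both strands. These were the GC box GGGCGG, the palindrome GGCGCC, a GC-rich motif that BMP-activated Smads can bind, and the E-box CACGTG. The windows are chr14:46390670-46390919 on the minus strand for Bmp4, chr13:38345466-38345715 on the plus strand for Bmp6, chr1:59764029-59764278 on the plus strand for Bmpr2 and chr14:34502547-34502796 on the minus strand for Bmpr1a.
Bmp4: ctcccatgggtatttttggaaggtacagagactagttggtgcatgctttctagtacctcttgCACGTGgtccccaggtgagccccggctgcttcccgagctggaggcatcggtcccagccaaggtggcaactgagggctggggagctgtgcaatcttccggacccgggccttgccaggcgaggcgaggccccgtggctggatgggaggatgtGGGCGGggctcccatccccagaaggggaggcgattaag
Bmp6: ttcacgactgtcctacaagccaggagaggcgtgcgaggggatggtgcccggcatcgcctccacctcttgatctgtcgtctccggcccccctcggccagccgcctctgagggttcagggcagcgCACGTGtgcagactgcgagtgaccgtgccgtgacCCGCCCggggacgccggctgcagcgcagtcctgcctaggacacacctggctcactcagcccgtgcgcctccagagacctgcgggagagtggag
Bmpr2: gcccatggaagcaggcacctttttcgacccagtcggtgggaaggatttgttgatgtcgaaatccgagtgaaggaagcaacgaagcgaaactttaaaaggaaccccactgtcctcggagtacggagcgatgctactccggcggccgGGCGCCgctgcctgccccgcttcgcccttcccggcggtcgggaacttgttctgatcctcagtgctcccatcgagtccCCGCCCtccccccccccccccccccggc
Bmpr1a: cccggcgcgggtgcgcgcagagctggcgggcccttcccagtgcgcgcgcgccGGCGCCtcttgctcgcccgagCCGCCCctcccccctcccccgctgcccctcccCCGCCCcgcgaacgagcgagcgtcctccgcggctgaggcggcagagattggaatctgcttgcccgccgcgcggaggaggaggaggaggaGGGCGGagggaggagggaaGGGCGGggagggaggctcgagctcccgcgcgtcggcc
All 6 matched members held a GC box, which 32.7% of the 32851 RefSeq windows of this length hold. The palindrome lay in 4 of the 6, those of Bmpr1a, Bmpr2, Grem1 and Chrd, against 9.59% of all windows, and the E-box in 2, those of Bmp4 and Bmp6, against 6.02%. In the Bmp4 window the E-box began 188 bases and the GC box 38 bases before the start site. All 6 windows were GC-rich, from 63.2% for Bmp4 to 78.8% for Bmpr1a, against a median of 52.4% over all windows. The shares over all windows were not matched for GC content, so they do not show whether the motifs are more frequent than in windows this GC-rich. A match describes letters in these windows and is not a measured binding site.

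Values are log2 signals from MAS5, scaled to a common level within each array type. Array medians were 9.14 to 9.30 on MOE430A and 9.60 to 9.79 on MOE430B, and no detection calls were available. A signal below the median is therefore called dim here, with no bound stated. Outside the marker sums, no probe set's level is set against that of another. Difference means PP6 minus MACS. Log2 signals correlated at r = 0.858 between the MACS cultures, at 0.839 between the PP6 cultures and at 0.783 to 0.835 across the groups, over 23963 probe sets, which are not independent replicates. Within each array type all 4 arrays shared 1 chip lot, 1 hybridisation day, 1 scan day and 1 station, while each culture had its own fluidics module, and module and culture cannot be told apart. RNA was more concentrated in MACS (55 and 65 ng/ul) than in PP6 (35 and 15 ng/ul), and its part in the results was not tested.

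Bmp4, a ligand made by mesenchymal and endothelial cells, showed the widest difference among the tested members. Its log2 signal was 10.95 and 9.56 in MACS replicates 2 and 3, and 8.49 and 8.60 in PP6 replicates 2 and 3. Both PP6 cultures were dim and lay close together, both MACS cultures lay above them, and MACS replicate 2 stood well above MACS replicate 3. The means were 10.26 ± 0.98 and 8.55 ± 0.07 (SD, n = 2), a difference of -1.71 ± 0.61 (SE), or 3.27-fold lower in PP6. With limma the unadjusted p was 0.033 and the p adjusted over all tested probe sets 0.407, so the difference did not pass the threshold of 0.05. Leaving out MACS replicate 2 brought it to -1.02, and leaving out MACS replicate 3 took it to -2.40. With dim signals raised to the array median it was -0.97. In bulk RNA, fewer cells of a type that makes a transcript and less of it per cell cannot be told apart.

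Bmp2, the nearest relative of Bmp4 and a strong inducer of bone, stood at 9.43 and 9.34 in MACS and at 9.05 and 8.02 in PP6. Both PP6 cultures lay under both MACS cultures, and PP6 replicate 3 was the lowest. The difference was -0.85, with a 95% interval of -2.50 to 0.80 and an adjusted p of 0.665 in limma, and without PP6 replicate 3 it was -0.34. With dim signals raised to the array median it was -0.092. Bmp6, known as the ligand that liver endothelium makes to regulate iron, stood at 10.17 and 9.41 in MACS and at 9.20 and 9.03 in PP6. Here too the groups did not overlap, and the highest value was again that of MACS replicate 2. The difference was -0.68, with an interval of -1.90 to 0.55 and an adjusted p of 0.641, and without MACS replicate 2 it was -0.30.

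Bmp7, a ligand best known from kidney and eye development, was dim in all 4 cultures on all 3 of its probe sets, so none was tested. Probe set 1435479_at gave 8.89 and 8.97 in MACS and 8.90 and 6.57 in PP6. PP6 replicate 2 was level with MACS, and only PP6 replicate 3 was low. Probe set 1418910_at gave 7.09 and 5.81 in MACS and 5.65 and 5.58 in PP6, and 1432410_a_at gave 4.47 and 3.92 against 4.89 and 4.51. The 3 probe sets differed in sign, from -1.19 to 0.50, and with dim signals raised to the array median all 3 differences became 0.13, the offset between the array medians.

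**Figure D1:**
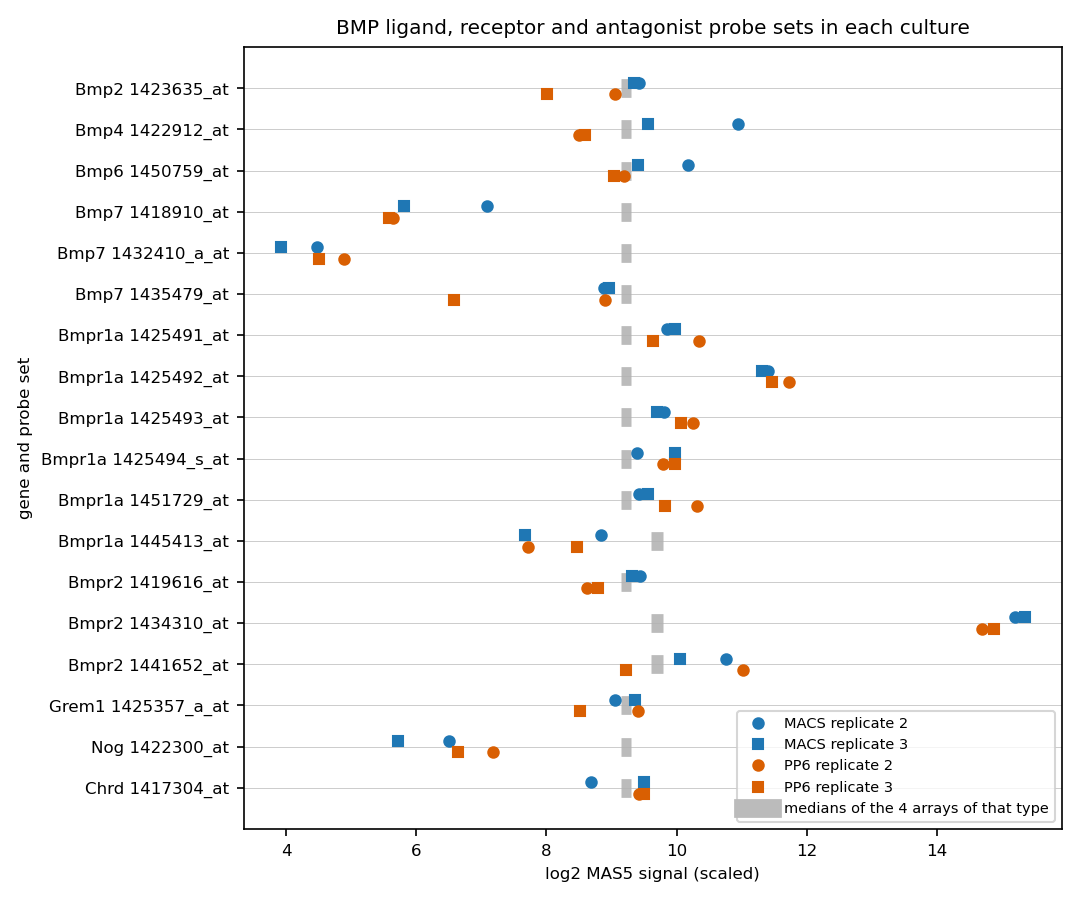
Log2 MAS5 signal (x axis) of the 18 probe sets of the 9 genes (y axis) in each culture, with MACS in blue, PP6 in orange, circles for replicate 2 and squares for replicate 3; grey bars span the medians of the 4 arrays of that type. Bmp4 lies at 9.56 and 10.95 in MACS and at 8.49 and 8.60 in PP6, and Bmpr2 probe set 1434310_at at 15.19 and 15.35 against 14.69 and 14.88.

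Bmpr2, the type II receptor that BMPs share, had 3 probe sets, all tested and all with a negative difference. Probe set 1434310_at, the one on which the receptor result turns, had a log2 signal of 15.19 and 15.35 in MACS and of 14.69 and 14.88 in PP6. The 2 groups were apart by 0.32 at their nearest values, and the cultures of a group by 0.15 in MACS and 0.19 in PP6. Its means were 15.27 ± 0.11 and 14.78 ± 0.14 (SD, n = 2), a difference of -0.49 ± 0.20 (SE), or 1.40-fold lower in PP6. The 95% interval ran from -0.995 to 0.02, and limma gave an adjusted p of 0.448. Leaving out each culture in turn kept that difference between -0.58 and -0.39, but quantile normalization brought it to -0.21.

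The second Bmpr2 probe set, 1419616_at, stood at 9.44 and 9.32 in MACS and at 8.63 and 8.79 in PP6, a difference of -0.67 with an adjusted p of 0.688. Both PP6 cultures lay below both MACS cultures, but the PP6 signals were dim, and with dim signals raised to the array median the difference was -0.090. The third, 1441652_at, stood at 10.75 and 10.05 in MACS and at 11.02 and 9.22 in PP6, so the PP6 cultures lay on either side of MACS. Its difference of -0.28 became 0.62 without PP6 replicate 3, 0.073 without MACS replicate 2 and 0.0075 with dim signals raised to the array median.

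Bmpr1a, a type I receptor of BMP2 and BMP4 with a role in many mesenchymal tissues, had 6 probe sets. The 5 on MOE430A were above the array median in every culture and gave differences of 0.08 to 0.58, all positive, although that of 1425491_at turned to -0.046 when arrays were centred on their medians. Probe set 1451729_at gave 9.42 and 9.56 in MACS and 10.32 and 9.83 in PP6. Both PP6 cultures were above both MACS cultures, as they were for 1425492_at and 1425493_at. For 1451729_at the difference was 0.58 ± 0.40 (SE), with a 95% interval of -0.41 to 1.57 and an adjusted p of 0.621 in limma.

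Probe set 1425492_at gave 11.41 and 11.31 in MACS and 11.73 and 11.46 in PP6, a difference of 0.24 with an interval of -0.36 to 0.83. Its gap between the groups was 0.05, less than the 0.27 between the PP6 cultures. Probe set 1425493_at gave 9.80 and 9.70 in MACS and 10.25 and 10.06 in PP6, a difference of 0.40. The groups overlapped for 1425491_at, at 9.85 and 9.97 against 10.34 and 9.64, and for 1425494_s_at, at 9.40 and 9.98 against 9.78 and 9.98. Without PP6 replicate 2 the difference of 1425491_at was -0.27, and without MACS replicate 2 that of 1425494_s_at was -0.10. The sixth probe set, 1445413_at on MOE430B, was dim throughout, at 8.84 and 7.67 in MACS and 7.71 and 8.47 in PP6, and the groups overlapped. The probe sets of 1 gene share their transcript and are not replicates of a condition, and whether the Bmpr1a and Bmpr2 differences themselves differ was not tested.

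**Figure D2:**
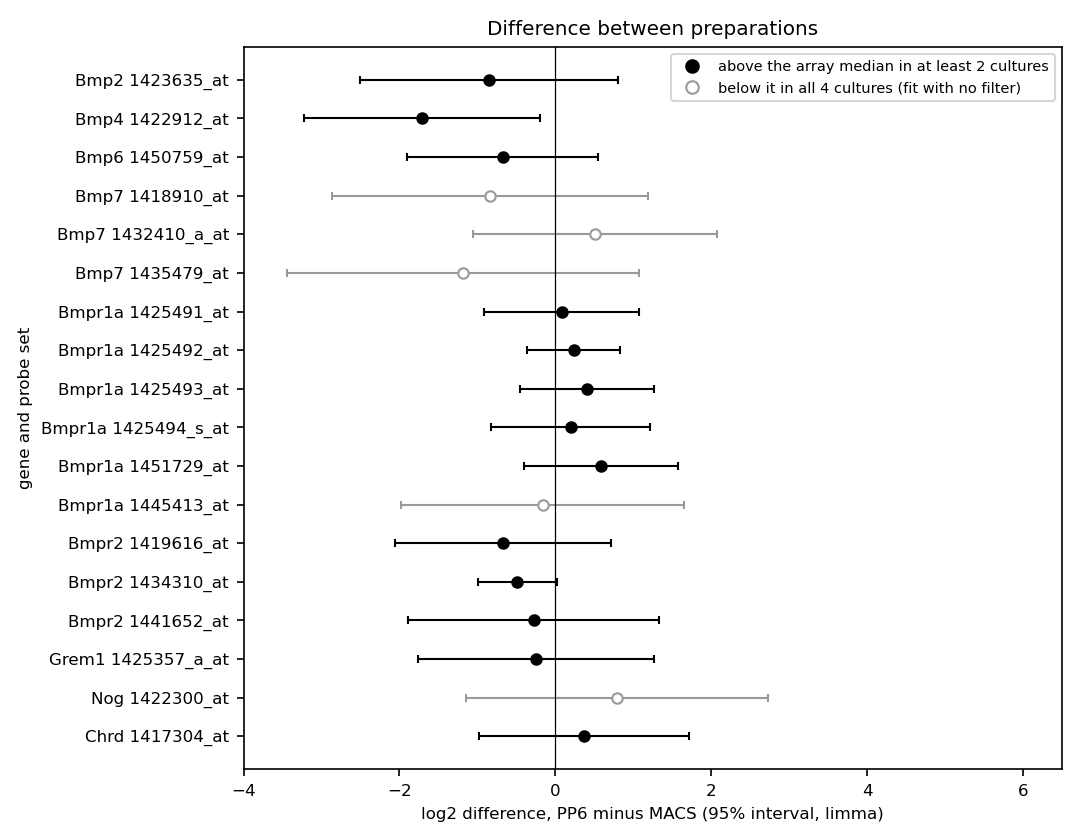
Difference in log2 signal, PP6 minus MACS, with its 95% interval from limma (x axis) for each of the 18 probe sets (y axis); filled points were above the array median in at least 2 cultures and open points in none. The interval of Bmp4 runs from -3.23 to -0.20 and is the only one that leaves out 0 before adjustment for multiple tests.

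Among the antagonists, Grem1, which encodes the BMP-binding protein gremlin 1, stood at 9.06 and 9.35 in MACS and at 9.40 and 8.51 in PP6. The signals lay around the array median, and the PP6 cultures enclosed those of MACS. The difference was -0.25, with an interval of -1.77 to 1.27 and an adjusted p of 0.906 in limma. It turned to 0.20 without PP6 replicate 3 and to 0.10 with dim signals raised to the array median. The latter value is smaller than the offset of 0.13 between the array medians, which enters it in part. Chrd, the gene of chordin, stood at 8.68 and 9.50 in MACS and at 9.41 and 9.50 in PP6. MACS replicate 2 was the low one, and the other 3 cultures lay close together. The difference was 0.37, with an interval of -0.98 to 1.71 and an adjusted p of 0.834, and without MACS replicate 2 it was -0.048. Nog, the gene of noggin, was dim in all 4 cultures, at 6.51 and 5.72 in MACS and 7.17 and 6.64 in PP6, and was not tested. Both PP6 values were above both MACS values, by 0.13 at the nearest, which is less than the spread within either group.

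Of these 18 probe sets, 13 were above the array median in at least 2 cultures and were tested, from 7 of the 9 genes. None of the 13 had a limma adjusted p below 0.05, a count of 0 whether higher or lower. The same held for all 23963 tested probe sets, 0% of which were called higher and 0% lower, with 0.255 as the lowest adjusted p of any. Bmp4 was the 1 member below 0.05 before adjustment, lower in PP6, against 5.83% of all tested probe sets lower and 5.69% higher. Those shares stand for 1396 lower and 1364 higher, which became 1983 and 948 when arrays were centred on their medians. Over all 18 probe sets the groups did not overlap in 11, with 6 lower and 5 higher in PP6, against 40.6% of all probe sets in either direction. Among the 13 tested, 5 were lower and 3 higher without overlap, against 21.7% and 22.5% of the tested probe sets. Bmp2, Bmp4, Bmp6 and probe set 1419616_at of Bmpr2 were tested through the MACS cultures alone, so the filter fixed their sign, and the count of 5 is partly built in. The 2% trimmed means of the arrays were equal, and centring on medians instead moved the median difference of all tested probe sets from 0.01 to -0.11. With 2 cultures a group, 33.3% is the smallest two-sided p that exact permutation allows.

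**Figure D3:**
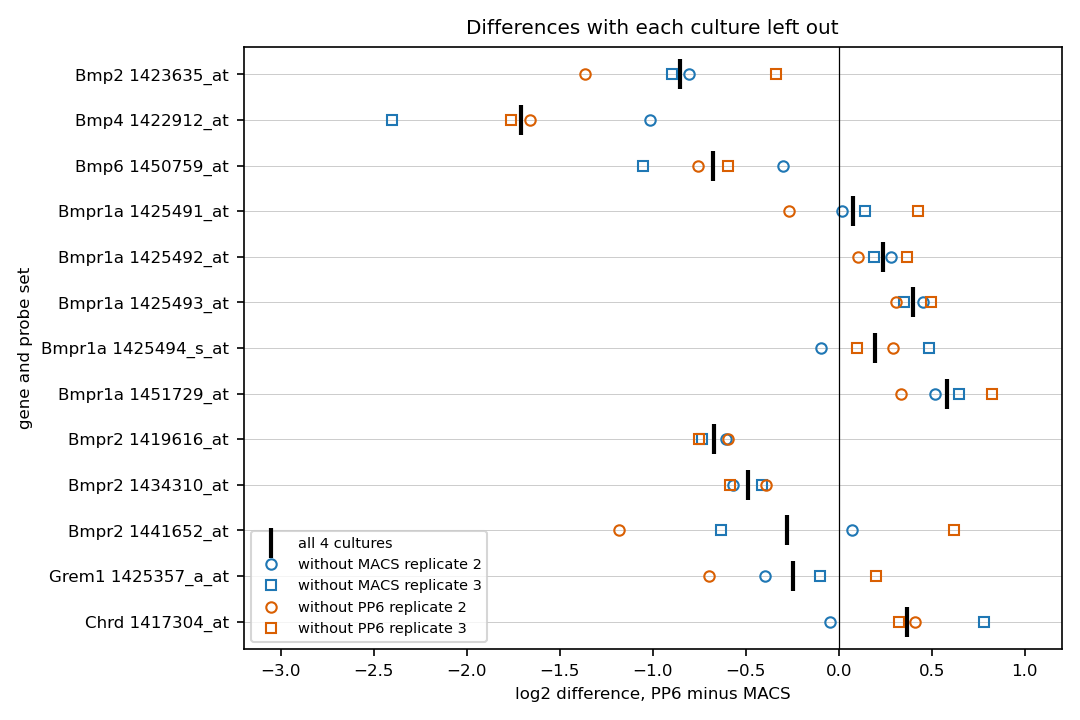
Difference in log2 signal, PP6 minus MACS (x axis), for the 13 tested probe sets (y axis) with all 4 cultures (black bars) and with each culture left out (open symbols, by the culture removed). Bmp4 ranges from -2.40 to -1.02 and Bmpr2 probe set 1434310_at from -0.58 to -0.39, while Grem1, Chrd, Bmpr2 probe set 1441652_at and 2 Bmpr1a probe sets have values on both sides of 0.

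The rest of the pathway was followed through 57 further genes in 6 roles, of which 35 had a tested probe set and each was represented by 1. In limma 0 of the 35 reached an adjusted p below 0.05, higher or lower. At an unadjusted p under 0.05, 7 were lower in PP6 and 2 higher, where 5.44% and 5.81% of the 12278 tested genes were. The groups did not overlap for 7 that were higher and 10 that were lower, where 23.8% and 21.9% of all tested genes were so. The median difference was -0.08, beside 0.02 over all tested genes. The 7 were the intracellular inhibitors Smurf2, Smad7 and Smad6, the receptor Acvr1, the co-receptors Rgmb and Eng, and the membrane-bound BMP-binding Crim1, and the 2 were Bmper and Bmp1. For Crim1 the filter fixed the sign, since it was tested through the MACS cultures alone.

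Transducers and intracellular inhibitors had 7 tested genes, 6 with a negative difference and 3 at an unadjusted p under 0.05. Smurf2, a ubiquitin ligase that marks Smads and receptors for destruction, had a log2 signal of 15.56 and 14.89 in MACS and of 13.72 and 13.36 in PP6. Both PP6 values were well below both MACS values. The difference was -1.68 ± 0.29 (SE), with an adjusted p of 0.285 in limma, and all 3 Smurf2 probe sets lay between -1.68 and -0.63 with no overlap. Of its relative Smurf1, one probe set gave -0.08 and the other -3.12, so its probe sets disagree in size, and the second was tested through the MACS cultures alone.

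Smad7, which blocks TGF-beta and BMP receptors, gave 11.17 and 11.67 in MACS and 10.32 and 10.68 in PP6, a difference of -0.92 with an adjusted p of 0.384. Smad6, which mainly blocks BMP signals, gave 11.71 and 11.52 against 11.05 and 10.87, a difference of -0.65 with an adjusted p of 0.418. Both genes are themselves known to be switched on by these signals. A second Smad7 probe set, of a type that can bind other transcripts, gave 0.60, so the direction for Smad7 rests on 1 of 2 probe sets.

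Other receptors and co-receptors had 9 tested genes, 5 with a negative difference, and 3 of them were at an unadjusted p under 0.05. Acvr1, a type I receptor whose activating mutations cause bone to form in muscle in humans, gave 11.20 and 11.12 in MACS and 10.17 and 10.56 in PP6. The groups did not overlap on that probe set, and the difference was -0.79 with an adjusted p of 0.411, while another tested probe set of Acvr1 gave 0.36 with overlap. Rgmb, a membrane-anchored co-receptor, gave 12.89 and 12.96 in MACS and 12.21 and 12.29 in PP6. Its difference was -0.68, with an adjusted p of 0.355, and lay between -0.72 and -0.64 with each culture left out. Its other 3 tested probe sets gave -1.26 to -0.06, while its 2 untested probe sets, each above the array median in 1 culture, gave -0.88 and 1.59. The probe set at -1.26 was tested through the MACS cultures alone, so the filter fixed its sign. Eng, the endothelial co-receptor endoglin, gave 12.70 and 12.52 in MACS and 12.10 and 11.93 in PP6, a difference of -0.59 with an adjusted p of 0.412. Its other probe set gave -0.77, also without overlap.

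Secreted modulators went both ways, with 4 of 7 tested genes positive. Bmper, a chordin-like protein that binds BMPs in the vessel wall, gave 13.48 and 13.64 in MACS and 14.09 and 13.99 in PP6, a difference of 0.48 with an adjusted p of 0.431. Crim1 gave 9.80 and 10.11 in MACS and 8.77 and 8.65 in PP6, a difference of -1.24 with an adjusted p of 0.423. With dim signals raised to the array median it was -0.66. The other Crim1 probe set, dim in all cultures, gave 0.28 with overlap. Fstl1, a secreted follistatin-like glycoprotein, gave 0.38 and, by its other probe set, 0.70, both without overlap. The protease Bmp1, which cleaves chordin and also procollagens and is not itself a BMP, gave 11.44 and 11.72 in MACS and 12.25 and 12.53 in PP6. Its difference was 0.81 ± 0.24 (SE), with an adjusted p of 0.357 in limma, and it was the one chordin protease tested of 3.

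The groups overlapped for all 7 tested target genes, where 21.9% of all tested genes were lower and 23.8% higher without overlap. Of the 7, 4 had a negative difference and 0 an unadjusted p under 0.05 in limma. The untested targets Dlx5 and Atoh8 gave differences of 1.36 and 0.51, both without overlap. Id1, a direct target of BMP-activated Smads, gave 11.91 and 11.02 in MACS and 11.31 and 11.02 in PP6. Its difference was -0.30, with an interval of -1.20 to 0.60, and it turned to 0.15 without MACS replicate 2. Id3 gave 13.54 and 12.68 in MACS and 13.44 and 13.07 in PP6, a difference of 0.15 with an interval of -0.68 to 0.98. MACS replicate 2 was the highest culture for Id1, Id3 and Id4, as it was for Bmp4 and Bmp6. MACS replicate 3 was the highest for Id2 and Msx1, and PP6 replicate 2 for Msx2 and Hey1. A link between ligand and target values was not tested. Id2 differed by -0.65 and Id4 by -0.38, while the homeobox genes Msx1 and Msx2 differed by -0.39 and 0.61. A second tested Msx1 probe set gave 0.61, also with overlap, so the Msx1 probe sets disagree in sign. The other Msx2 probe set, dim in all cultures, gave -0.50 with overlap, so those of Msx2 disagree too. The intervals are wide enough that differences of the size seen for Smad6 lie within those of Id1, Id2, Id3 and Id4.

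Other ligands had 4 tested genes of 11, all with a positive difference and 0 at an unadjusted p under 0.05. Bmp5 gave 12.80 and 13.67 in MACS and 13.76 and 13.02 in PP6, with overlap and a difference of 0.16. Other Bmp5 probe sets, dim in all cultures, gave 1.82 without overlap and 0.03 with overlap. Gdf2, a ligand made mainly in liver that circulates to the endothelium, differed by 0.52, and Bmp15, an oocyte factor, by 1.85. The last 2 were tested through the PP6 cultures alone, so their sign was fixed by the filter, and other Bmp15 probe sets, dim in all cultures, gave -2.15 and -1.88.

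**Figure D4:**
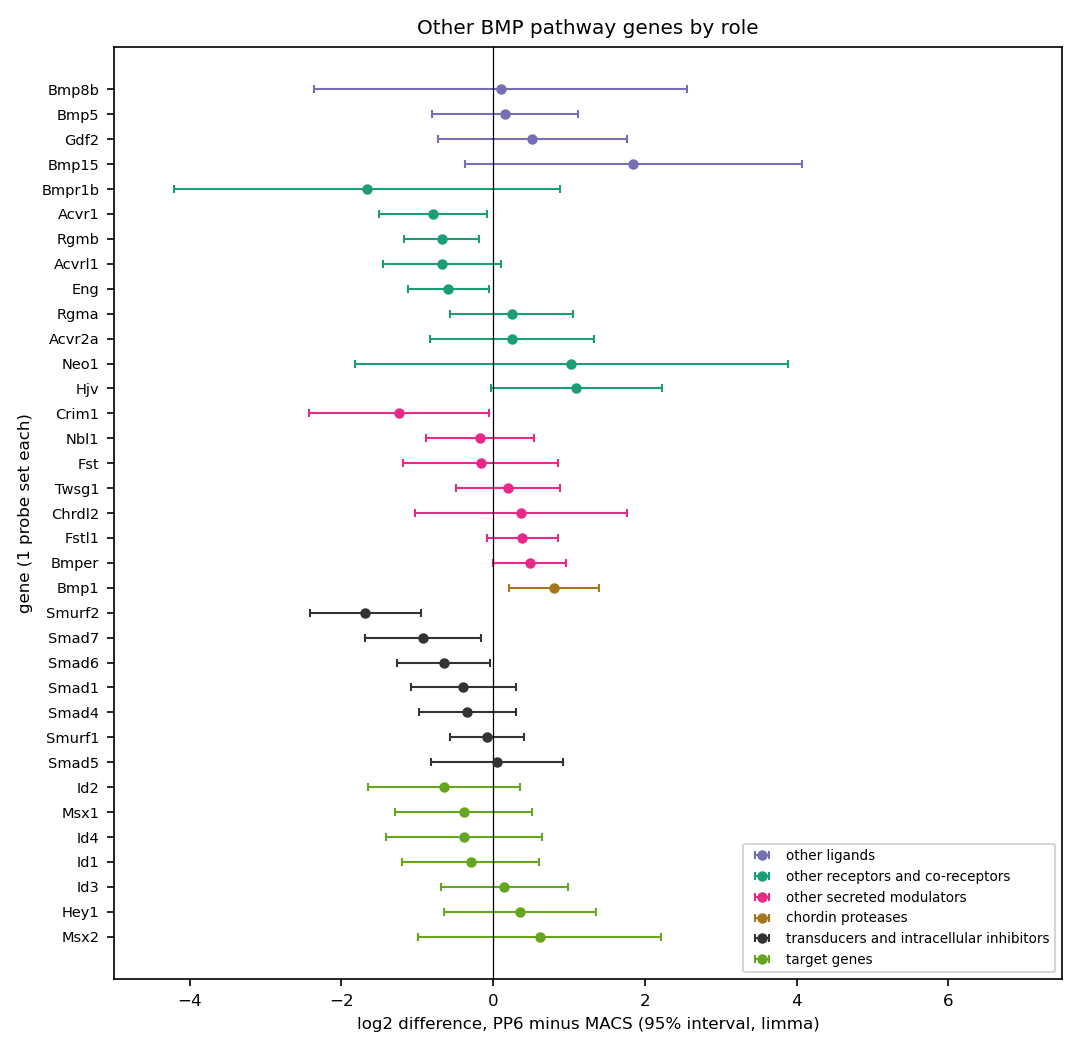
Difference in log2 signal, PP6 minus MACS, with its 95% interval from limma (x axis) for the 35 tested genes of the wider BMP pathway (y axis, 1 probe set each), coloured by role. Smurf2 at -1.68, Smad7 at -0.92 and Smad6 at -0.65 lie left of 0, and the intervals of all 7 target genes cross it.

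Markers of several cell types also differed between the groups, but none of those tested reached an adjusted p below 0.05 in limma. Of all tested genes, 21.9% were lower and 23.8% higher in PP6 without overlap. Ly6a, the gene of Sca1, was not analysed here, and Ptprc, the gene of CD45, stood at 8.25 and 8.67 in MACS and at 9.71 and 11.43 in PP6. All 7 tested endothelial markers of 8 were lower in both PP6 cultures, with a median difference of -0.59. Their summed linear signal was 28731 to 35900 in MACS and 18809 to 21014 in PP6, with MACS replicate 2 the highest. Pecam1 differed by -0.29 and Cdh5 by -0.40. All 5 tested leukocyte markers of 6 and all 4 neutrophil markers were higher in PP6, with summed signals of 3343 to 3684 and 2902 to 3768 in MACS and of 8931 to 29721 and 92493 to 317159 in PP6. All 7 markers of differentiated muscle were higher as well, at 4577 to 5067 against 22905 to 51514, with Myog at a difference of 2.26. Ptprc, Cd53, S100a9, Acta1, Tnnc1, Tnnt1 and Mylpf were tested through the PP6 cultures alone. The filter therefore fixed their sign, and the leukocyte, neutrophil and muscle counts are partly built in. Of 6 fibroblast markers 5 were positive, at 60761 to 109032 against 177690 to 186713, with Col1a1 at 2.17. Pdgfra, counted as positive, differed by only 0.03 with overlap. Its other tested probe sets gave 0.24 and -0.69, both without overlap. All 5 pericyte and smooth muscle markers were positive, at 23612 to 30376 against 37469 to 43326. Bright probe sets weigh most in such sums. Acta2 gave 18026 of the 23612 in MACS replicate 2, and Dcn 110604 of the 186713 in the fibroblast sum of PP6 replicate 2. The sums therefore do not measure a cell type as a whole. Of 3 tested satellite cell and myoblast markers 1 was positive, at 11509 to 12534 against 9912 to 11426. That sum covers opposite differences, of -1.56 for Pax7 and 1.27 for Des, both without overlap, and of -0.19 for Myod1 with overlap. Second tested probe sets gave -0.28 for Des and 0.37 for Myod1, both with overlap. No marker was listed at 0, and the part of any of these cell types in the BMP values was not tested.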

How the data were processed

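RNA of 4 cultures was measured on 8 Affymetrix arrays, 1 MOE430A and 1 MOE430B for each culture. The authors deposited linear signal intensity per probe set, made with MAS5 (version not given in the sources used here), per the submitters' processing notes. Equal 2% trimmed means show that arrays had been scaled before deposit. Deposited scanner setting files served only to count lots, days, stations and modules.

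Within each array type, signals were brought to a common trimmed mean and then log2-transformed with no pseudocount. Both types were stacked, without 64 control probe sets per type and with the MOE430A value of 100 probe sets present on both. Names came from the platform annotation, updated through Entrez identifiers to RefSeq. A probe set was tested when above its array's median in at least 2 cultures. The comparison of PP6 and MACS used lmFit and eBayes with an intensity trend from limma 3.58.1 in R 4.3.3, two-sided, with Benjamini-Hochberg adjustment over 23963 probe sets, 2 residual degrees of freedom and 5.67 after moderation. Dim members were described by the same fit with no filter. Pathway genes used 1 probe set: tested, MOE430A first, then the highest mean. The fit was tested on simulated data. The number of cultures limits the precision. Named were all members, the 3 pathway genes with the smallest p per role, Smad6, Smad7 and Id1 to Id4. Of the markers, Ptprc, Pecam1, Cdh5, Myog, Col1a1 and Ly6a were named by plan. Smurf1 and the other named markers were named after their values were seen. Members and lists were chosen with earlier results of these data known. Same-numbered cultures did not deviate together (r = -0.03 across probe sets), so replicate numbers were not taken as pairs. Alternatives tried were median centring, quantile normalization, unscaled deposited values, a pseudocount at the 20th percentile, no filter, dim signals raised to the array median, no intensity trend, each array type alone, the replicate number as a block, and each culture left out with the same probe sets tested.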

Additional observations from a re-analysis of the deposited data

How the results depend on the processing

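In all 13 alternatives 0 of the 13 tested member probe sets and 0 of the 35 pathway genes passed an adjusted p of 0.05. The differences of Bmp2, Bmp4, Bmp6 and of Bmpr2 probe sets 1419616_at and 1434310_at stayed negative in all of them, which was partly built in. Their groups did not overlap, so leaving out a culture could not turn the sign. No filter, no intensity trend, each array type alone and the replicate block left these differences unchanged. All but 1434310_at were also tested through the MACS cultures alone, so the filter fixed their sign. With dim signals raised to the array median, Bmp2 gave -0.092, Bmp4 -0.97 and Bmpr2 1419616_at -0.090. Bmp6 gave -0.30 without MACS replicate 2, and Bmpr2 1434310_at gave -0.21 with quantile normalization, and the cause was not tested. Signs turned in some alternatives. With median centring, Bmpr1a probe set 1425491_at gave -0.046. With dim signals raised to the array median, Bmpr2 1441652_at gave 0.0075 and Grem1 0.10. With each culture left out in turn, these differences had values on both sides of 0: Bmpr1a 1425491_at from -0.27 to 0.43, Bmpr1a 1425494_s_at from -0.096 to 0.48, Bmpr2 1441652_at from -1.18 to 0.62, Grem1 from -0.70 to 0.20 and Chrd from -0.048 to 0.78. The same held for Bmp5, from -0.28 to 0.59, Msx2, from -0.22 to 1.45, Id1, from -0.74 to 0.15, and Id3, from -0.28 to 0.58.

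Over all probe sets, 71 passed the threshold with each array type fitted alone, 23 with dim signals raised, 2 with the replicate block and 0 to 1 with a culture left out. At an unadjusted p under 0.05, 2216 were higher with no filter; with a culture left out, 648 to 1790 were higher and 918 to 1348 lower. Of the members, 2 reached that p with median centring, Bmp4 and Bmpr2 1434310_at, and 0 to 1 with a culture left out. Bmp4 missed it without MACS replicate 2, PP6 replicate 2 or PP6 replicate 3, and without MACS replicate 2 the 1 member that reached it was Bmpr2 1434310_at. With a culture left out, 14 to 16 member probe sets did not overlap, 6 to 10 of them lower, where a group of 1 separates more easily. Pathway genes at that p numbered 1 higher with median centring and without the trend, and 4 lower with the replicate block. With a culture left out they were 0 to 3 higher and 2 to 4 lower. Without detection calls, the reliability of dim signals could not be judged.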
